A study of Mus musculus with 22 samples.

Results

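Of the 52636 genes measured in mouse duodenal organoids, 72 were raised when plasma-conditioned medium was given from day 1 after replating and were not raised when it was given from day 2. Members were chosen on log2(value + 1), where the value is the deposited read count scaled to 20 M reads per library. A member had a mean value of at least 30 over the 6 libraries exposed from day 1, at least 5 of these 6 libraries above all 4 untreated libraries, and a mean at least 0.8 above the untreated mean on the log2 scale. Its mean over the 6 libraries exposed from day 2 also had to lie under 0.2 above the untreated mean. The day 1 conditions alone were met by 974 genes, and 902 of them were at or over the day 2 limit. Because these libraries chose the 72 members, their levels in the untreated, indirect and plasma-activated medium (PAM) groups are a description that supports nothing, and a day 1 rise below is the difference of these means on the log2 scale.

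The organoids were grown from duodenal crypts of adult wild-type mice, per the study of the outbred CD1 strain, and each line came from 1 mouse. By the labels, line 1 was at passage 12, line 2 at passage 14 and lines 3 and 4 at passage 4. Differences between lines and between passages cannot be told apart. Lines 1, 2 and 4 gave 1 library in each of 7 groups, and line 3 gave 1 more untreated library, which makes 22 libraries. Cold atmospheric plasma (CAP), a partly ionised gas rich in reactive oxygen and nitrogen species, was applied directly to the culture at day 1, with the medium replaced after 30 min (direct 30 min) or 24 h (direct 24 h). In the indirect groups, naive organoids received medium from another culture that had been treated, and in the PAM groups they received medium treated without organoids, both either from day 1 or from day 2. By the study's design, organoids exposed from day 1 had fresh medium for the last day before collection at day 3, whereas those exposed from day 2 were collected as the exposure ended, in medium made a day earlier. Age at exposure, age of the medium and time in fresh medium cannot be told apart in a comparison of day 1 with day 2. The labels name the day 1 exposures as 30 min and the day 2 exposures as 24 h, while the study's methods give 24 h for both, and the time at which the direct 30 min group was collected is not certain. Organoids hold epithelium only, and each library mixes all its cell types, so more cells of a type and more RNA per cell cannot be told apart.

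In the intestinal epithelium, stem cells at the crypt base divide under Wnt signals and their progeny mature into absorptive enterocytes and secretory goblet, Paneth, enteroendocrine and tuft cells. After injury, surviving cells can pass through a transient repair state in which YAP and TEAD, the transcriptional partners at the end of the Hippo pathway, switch on matrix and growth genes such as Ctgf. D-type cyclins, among them Ccnd1 and Ccnd2, carry growth factor and Wnt signals to the kinases that start the cell cycle.

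The libraries were estimated to rest on 19.8 to 28.6 M counted reads. Epithelial markers were abundant, with enterocyte marker sums of 235172 to 277598 in the untreated libraries. Markers of fibroblasts and smooth muscle summed to 52 to 130 over all libraries, with the defining gene Lum at 0 in every group, and those of blood and endothelium to 116 to 301. The labels call the cells stem cells, but goblet, Paneth and enterocyte markers were present in every library. Proliferation markers moved with the exposures, from 42587 to 53703 in the untreated libraries to 21971 to 40298 in the day 1 indirect and PAM libraries and 7495 to 19575 in those from day 2. The sum of the 16 stem cell markers went from 71334 to 84699 in the untreated libraries to 27057 to 50386 from day 1 and 17577 to 39696 from day 2. Their part in the levels of the 72 members was not tested.

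The 72 members rose from day 1 by 0.81 to 3.07 on the log2 scale, with a median of 1.09, and 48 of them by at least 1. From day 2 they ranged from 1.28 below the untreated mean (Bcas1) to 0.19 above it (Oas1a), with a median of -0.10. All 6 day 1 libraries lay above all untreated libraries in 34 members, and 5 of 6 in the other 38. The library that fell short was indirect day 1 of line 1 in 25 of these 38 members. From day 2, 30 members had no library above all the untreated ones, and 5 had at least 5 of the 6 libraries below all of them. The limit was set on the mean, and 11 members still had 3 or more of the 6 day 2 libraries above all the untreated ones. One of these, named after its values were seen, was Pcsk6, a protease that matures TGF-beta family ligands, with 1259 to 1528 in indirect from day 2 against 1072 to 1141 untreated.

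**Figure D1:**
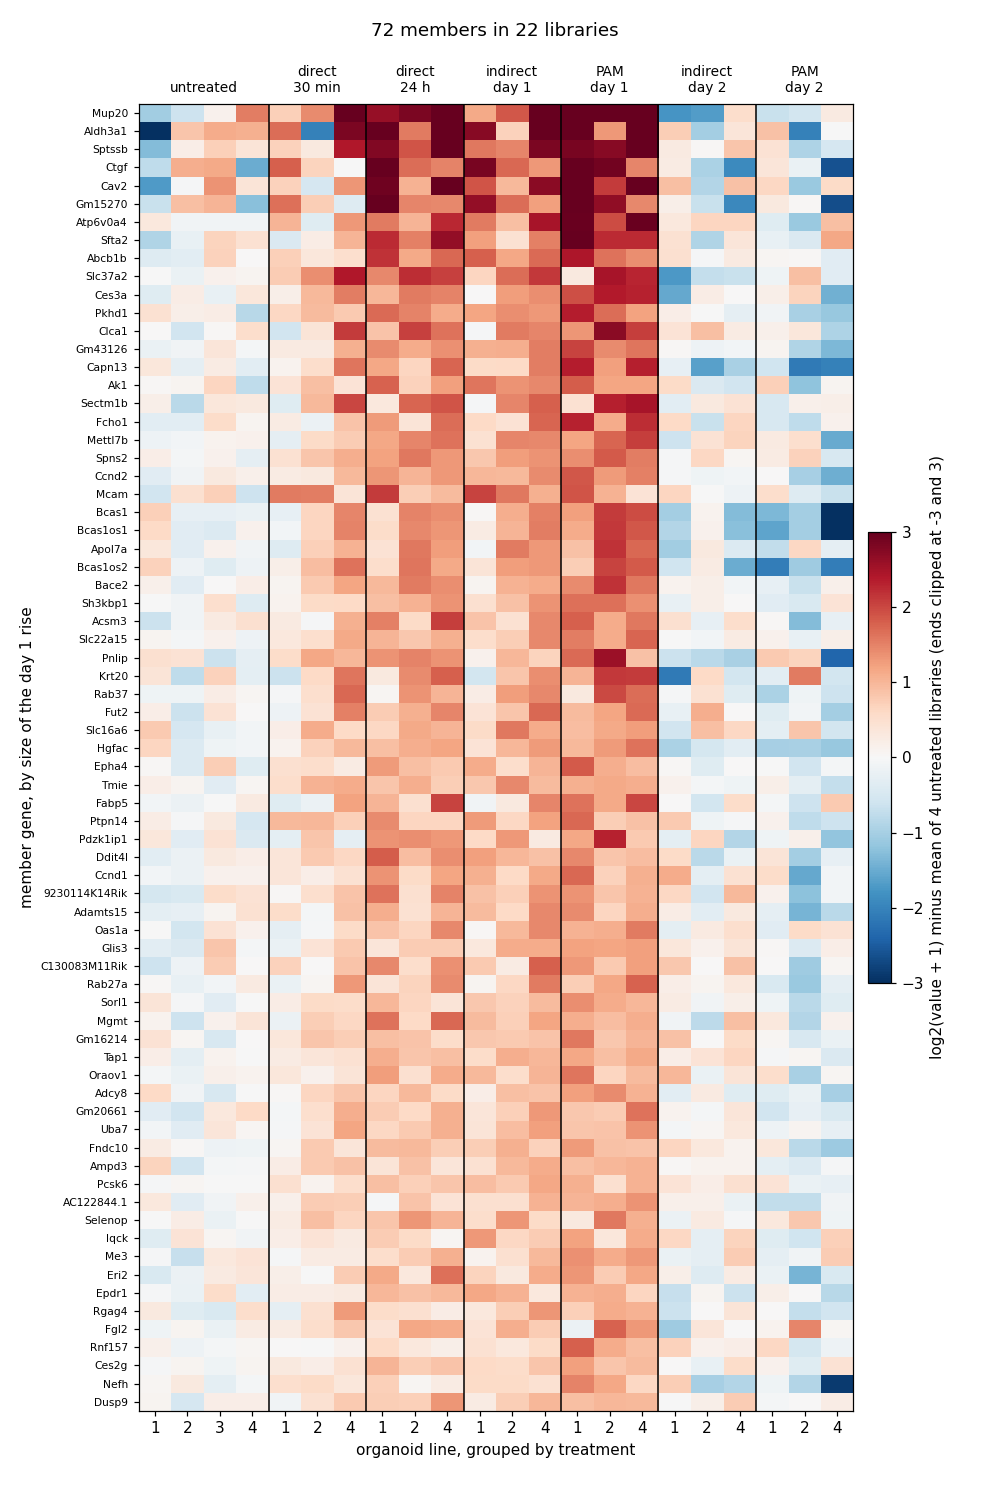
Log2(value + 1) minus the mean of the 4 untreated libraries, for the 72 members (rows, by size of the day 1 rise) in the 22 libraries (columns, by group and organoid line). Red is above and blue below the untreated mean. The direct 24 h and both day 1 groups are red, direct 30 min is paler and varies by line, and the day 2 groups are near white, with blue in Ctgf, Capn13 and the Bcas1 genes.

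Taken over the 72 members, the median difference from the untreated mean was 0.91 in the indirect and 1.29 in the PAM group from day 1, against 0.06 and -0.25 from day 2. In the direct groups, which had no part in choosing the members, it was 0.52 after 30 min and 1.09 after 24 h. The untreated libraries did have a part in that choice, so these differences from untreated are a description too. The lines differed in direct 30 min, where the median was 0.21 in line 1, 0.53 in line 2 and 0.85 in line 4, and in indirect from day 1, where it was 0.60, 0.97 and 1.30. In direct 24 h the same lines stood at 1.01, 0.95 and 1.30. Line 2 and line 4 in PAM from day 2 were the lowest libraries, at -0.51 and -0.30. In these same 2 libraries 36 and 35 members lay below all untreated libraries, and the medians over all genes were -0.09 and -0.22. The share of all genes below the untreated libraries is not given here, and the rule limited the day 2 mean. The counts are therefore a description only.

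**Figure D2:**
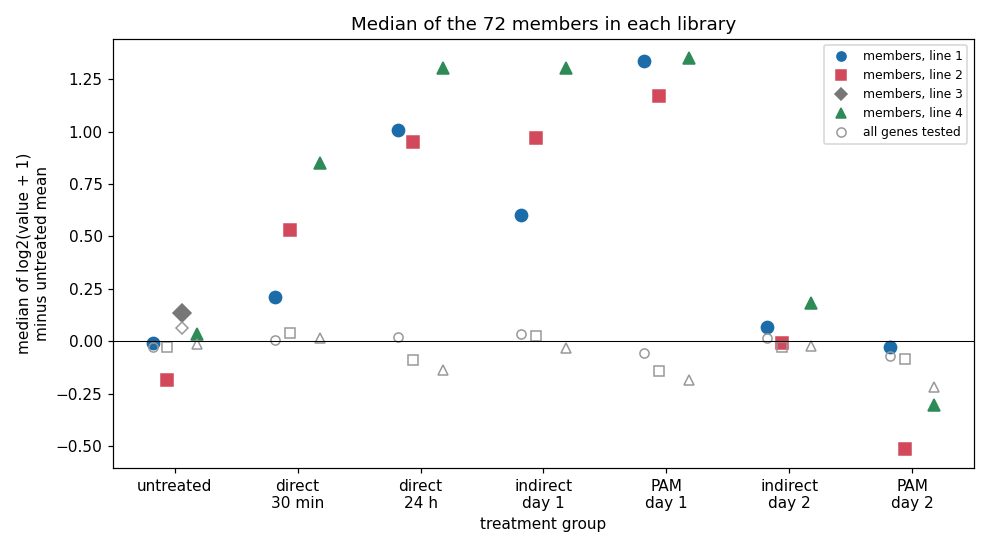
Median over the 72 members (filled, by organoid line) and over all genes tested in direct 24 h against 30 min (open grey) of log2(value + 1) minus the untreated mean, 1 pair of points per library. The member medians of the day 1 and direct 24 h libraries lie between 0.60 and 1.35, those of the day 2 libraries between -0.51 and 0.18, and the medians of all genes between -0.22 and 0.07.

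The members map to 17 chromosomes. 64 are protein-coding, and overlapping or neighbouring genes reduce the 72 members to 62 separate loci. Members were sorted into groups by known role after they had been chosen. In 10 pairs of members within 20 kb of each other, the genes overlap, and the sources used here do not say whether reads were counted by strand. Thus Gm15270 overlaps Ctgf on the other strand, Oraov1 overlaps Ccnd1, Eri2 overlaps Acsm3, and Gm43126 shares 86.7% of its exonic bases with Ccnd2. Reads of such partners cannot be told apart, and their values are not separate findings.

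Growth and signalling genes made up 11 members. Ctgf (chr10:24595442-24598683, GRCm38), a secreted matrix protein and a standard YAP-TEAD target, had values of 50, 183, 190 and 30 in untreated lines 1 to 4. In lines 1, 2 and 4 it was at 625, 284 and 212 in indirect and at 1374, 641 and 239 in PAM from day 1. From day 2 it was at 102, 44 and 22 in indirect and at 110, 74 and 13 in PAM, so that line 4 lay below every untreated library in both. The line order was kept in each treated group, with line 1 highest and line 4 lowest, while the library labelled untreated line 1 was low. The labels of untreated lines 1 and 2 are in doubt, as their correlations given below show. Direct CAP gave 300, 136 and 84 after 30 min and 833, 274 and 240 after 24 h.

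Ptpn14, a phosphatase that restrains YAP and is itself induced by it, had untreated values of 382, 321, 403 and 230. It stood at 643, 654 and 540 in direct 30 min and at 877, 511 and 515 in direct 24 h, all above the untreated libraries. The day 1 groups were at 798, 503 and 750 for indirect and 1078, 545 and 600 for PAM, and PAM from day 2 at 360, 193 and 211. Unlike Ctgf, Ptpn14 was as high after 30 min as after 24 h of direct CAP.

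Both cyclins were among the most abundant members. Ccnd1 (chr7:144929931-144939925) had values of 4072, 3778, 4665 and 4680 in the untreated lines, 9003, 6464 and 9368 in indirect and 14236, 6940 and 8933 in PAM from day 1. From day 2 its lines split, at 9212, 3497 and 5863 in indirect and 6281, 1468 and 4016 in PAM, with line 1 high and line 2 below every untreated library. Ccnd2 (chr6:127125162-127152193) went from 10559 to 16417 in the untreated libraries to 26221 to 48887 in the day 1 libraries, with no overlap. In PAM from day 2 it was at 13446, 6675 and 4863 in lines 1, 2 and 4, the last 2 below all untreated libraries. The cyclins were thus high in the day 1 groups while the summed proliferation markers were low.

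Epha4, a receptor for ephrins, was at 156 to 347 in the untreated libraries and rose by 1.09 from day 1. The other growth and signalling members included Dusp9, a phosphatase of MAP kinases, the zinc finger factor Glis3, the adenylate cyclase Adcy8, Hgfac, which activates hepatocyte growth factor, and Pcsk6. Their day 1 rises lay between 0.81 (Dusp9) and 1.10 (Hgfac).

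Metabolic and detoxifying enzymes made up 9 members. Aldh3a1, which oxidises reactive aldehydes, was low and varied by line, with 1, 28, 34 and 33 in the untreated lines, 106, 25 and 189 in indirect and 194, 39 and 137 in PAM from day 1. Line 2 was at 25 and 39, near the untreated values of 28 to 34. The untreated mean behind the day 1 rise of 2.49 includes the value of 1 in the library labelled line 1. The labels of untreated lines 1 and 2 are in doubt, so it is not certain which line held that value, nor whether line 2 rose. Ces3a, a carboxylesterase, was at 31 to 51 in untreated libraries and at 154, 212 and 201 in PAM from day 1, against 40, 97 and 107 in indirect. Its relative Ces2g, far more abundant, went from 2012 to 2345 in the untreated libraries to 3202 to 5185 from day 1. Mgmt, which removes alkyl groups from guanine in DNA, was at 35 to 71 in the untreated and 89 to 124 in the day 1 libraries.

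Of the 4 lipid genes, Sptssb, a subunit of the serine palmitoyltransferase that starts sphingolipid synthesis, had the largest day 1 rise, 2.43. It was at 167, 467, 670 and 538 in the untreated lines and at 1227, 1140 and 2903 in indirect and 2946, 2712 and 3651 in PAM from day 1. From day 2 it was at 498, 423 and 729 in indirect and 555, 215 and 287 in PAM, with 5 of these 6 libraries inside the untreated range and the library at 729 above it. Spns2, which exports sphingosine 1-phosphate and is counted among the transporters, went from 279 to 386 in the untreated libraries to 592 to 1201 from day 1. Fabp5, a fatty acid-binding protein, rose by 1.07, and Pnlip, pancreatic lipase, was at 9 to 21 in untreated and 16 to 92 in day 1 libraries.

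The 6 transporters and pumps rose by 1.10 to 2.13 from day 1. Abcb1b, a P-glycoprotein that exports drugs, was at 76 to 160 untreated and 223 to 535 from day 1. It has a close copy in the mouse genome, Abcb1a, so reads may have been split between them. Slc37a2, a sugar-phosphate exchanger, was at 74 to 93 untreated, at 134, 273 and 372 in indirect and 104, 478 and 414 in PAM from day 1. From day 2 its indirect values were 25, 51 and 53, below every untreated library, and its PAM values were 78, 158 and 67, with line 2 above every untreated library. Atp6v0a4, a proton pump subunit, was near the limit of measurement, at 5 to 7 untreated and 11 to 49 from day 1.

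Among 8 secreted, mucosal and maturation genes, Mup20 (chr4:62050234-62054158) had the largest day 1 rise of all members, 3.07. It belongs to the major urinary proteins, a family of near-identical genes, so its reads are uncertain. Its values were 19, 26, 44 and 118 untreated, 89, 149 and 367 in indirect and 348, 1107 and 894 in PAM from day 1, and 11 to 58 in the day 2 libraries. Clca1, a goblet cell secreted protein that acts on mucus, was at 2171 to 4668 untreated, 3188, 9498 and 8928 in indirect and 8074, 21164 and 13686 in PAM from day 1. Krt20, a keratin of mature epithelium, was at 643 to 1778 untreated, 746, 1963 and 2910 in indirect and 2232, 4802 and 4720 in PAM from day 1. Indirect line 1 was thus inside the untreated range in both. Sfta2, a secreted surfactant-associated protein, was at 4 to 14 untreated and 12 to 73 from day 1, and Selenop, a selenium transport protein, went from 5186 to 6938 to 7239 to 17932.

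The 9 members of vesicle traffic and the cell surface were led by Cav2, a caveolin. It was at 17, 56, 147 and 76 in the untreated lines, 216, 114 and 378 in indirect and 588, 249 and 501 in PAM from day 1. Rab27a and Rab37 control the release of secretory granules, and had day 1 rises of 0.99 and 1.15. The 3 interferon-responsive members were Oas1a, Tap1, which carries peptides for antigen presentation, and Uba7, which activates ISG15, with day 1 rises of 1.03, 0.97 and 0.93. Oas1a, a sensor of double-stranded RNA, was at 68 to 135 untreated and 103 to 299 from day 1. Pkhd1, the fibrocystin gene, stood outside these groups and rose by 1.52.

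**Figure D3:**
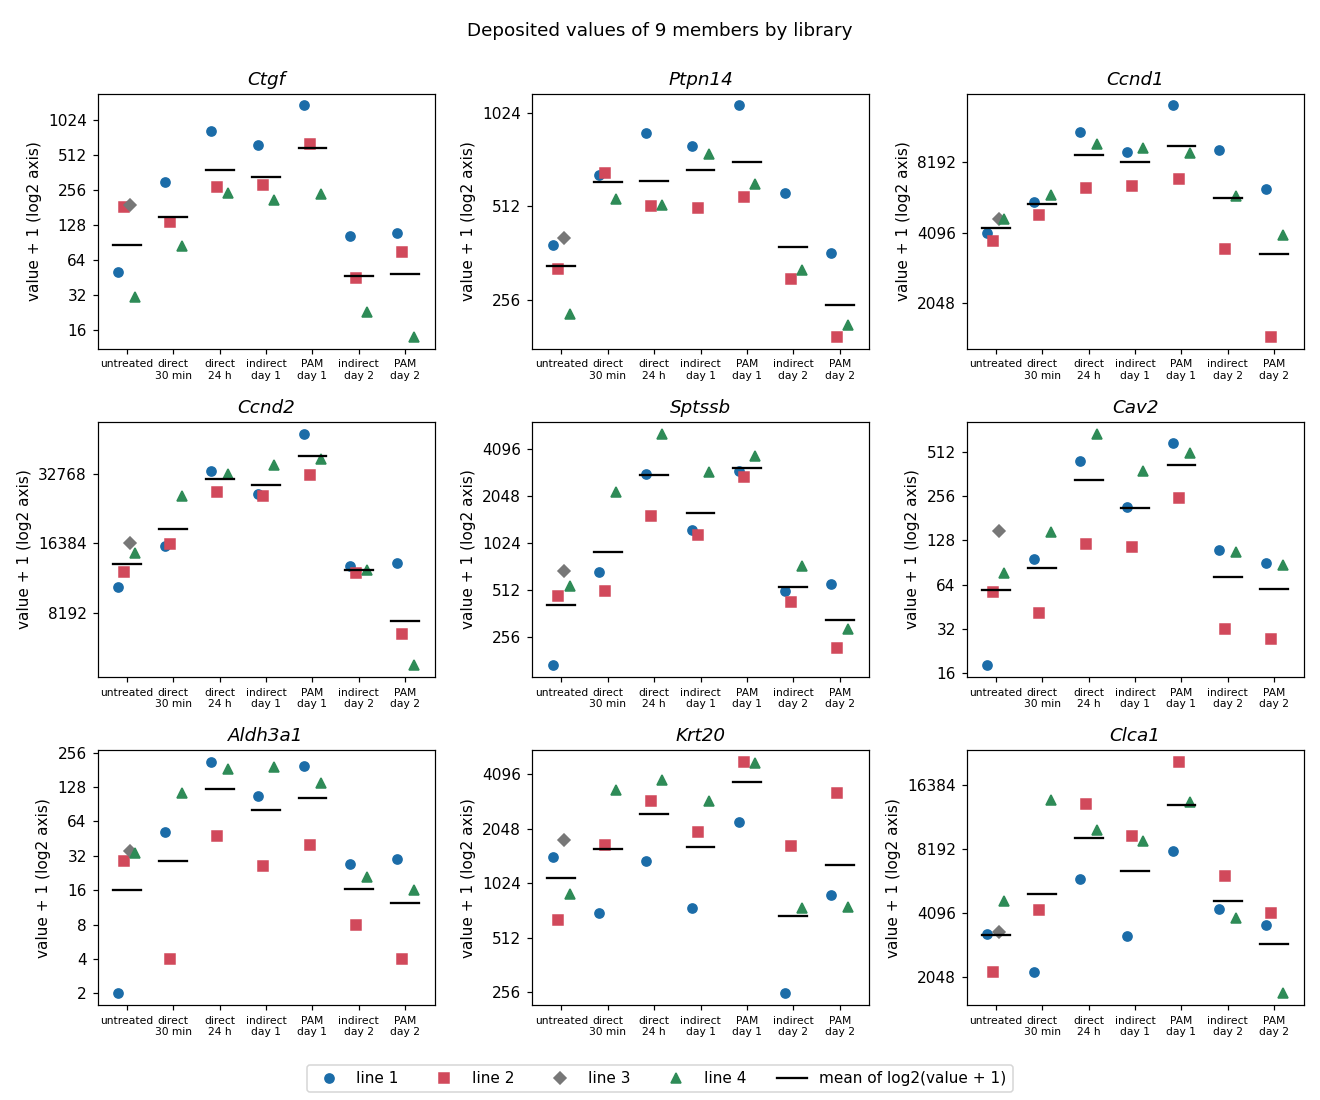
Deposited values plus 1 (log2 axis) of 9 members in the 22 libraries, by group, with a symbol per organoid line and a bar at the mean of log2(value + 1). Ctgf is highest in line 1 of each treated group, Ptpn14 is as high in direct 30 min as in direct 24 h, and Aldh3a1 is lowest in line 2 of each treated group.

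At the edges of the rule, Atp6v0a4, Iqck and Gm20661 had the lowest day 1 means among members, at 31.0 to 34.3, and Nlrp10, 9930038B18Rik and Slc7a15 lay just under the minimum at 27.8 to 28.2. Dusp9, Nefh and Ces2g just met the day 1 rise at 0.81, 0.82 and 0.84, and 9530053A07Rik, Tsku and Aspa missed it at 0.78, 0.79 and 0.80. Dusp9, Clca1 and Oas1a were just under the day 2 limit at 0.19, and Endod1, Ap1s3 and Rdh16f1 just over it at 0.21.

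The promoters of 4 members whose values are given per library, and which each hold the motif marked, are shown here to let motifs be seen in place. Other members with such values are not shown. Sptssb and Abcb1b hold none of the motifs marked below. Slc37a2 holds the AP-1 site, Clca1 the interferon response element and Sfta2 the TEAD core, so the promoters shown are examples only. Each promoter shown is the 250 bases before the RefSeq start on GRCm38.p6, in lower case, 5′ to 3′ on the strand of the gene. Capitals mark GGAATG or its complement, the core bound by TEAD factors, in Ptpn14 and Krt20, TGANTCA, the AP-1 site, in Cav2, and the interferon response element in Oas1a.
Ptpn14 (chr1:189728018-189728267, plus strand): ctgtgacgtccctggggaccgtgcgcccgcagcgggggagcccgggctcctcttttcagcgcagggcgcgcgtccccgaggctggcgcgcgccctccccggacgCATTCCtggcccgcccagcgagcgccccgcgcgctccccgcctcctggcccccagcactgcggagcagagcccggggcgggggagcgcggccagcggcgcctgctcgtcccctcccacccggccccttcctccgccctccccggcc
Krt20 (chr11:99438154-99438403, minus strand): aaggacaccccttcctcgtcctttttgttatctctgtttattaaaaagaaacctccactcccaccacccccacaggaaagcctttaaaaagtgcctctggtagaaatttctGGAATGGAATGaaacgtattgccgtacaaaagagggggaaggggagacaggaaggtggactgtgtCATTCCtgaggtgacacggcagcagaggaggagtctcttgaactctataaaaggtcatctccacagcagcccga
Cav2 (chr6:17280935-17281184, plus strand): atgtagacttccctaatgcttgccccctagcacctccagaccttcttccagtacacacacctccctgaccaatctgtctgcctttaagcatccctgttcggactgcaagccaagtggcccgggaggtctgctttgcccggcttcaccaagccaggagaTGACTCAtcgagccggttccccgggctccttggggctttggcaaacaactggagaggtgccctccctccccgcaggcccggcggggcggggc
Oas1a (chr5:120907526-120907775, minus strand): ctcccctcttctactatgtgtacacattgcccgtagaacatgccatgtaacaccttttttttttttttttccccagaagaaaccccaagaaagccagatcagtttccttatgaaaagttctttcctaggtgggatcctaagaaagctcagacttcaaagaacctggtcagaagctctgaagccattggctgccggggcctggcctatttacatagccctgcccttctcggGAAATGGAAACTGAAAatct

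A promoter was found in the RefSeq table for 50 of the 72 members, the first start listed for each gene was used, and both strands were searched. The TEAD letters occurred in 8 of these 50 (16%), against 12.6% of 27025 promoters, and those of AP-1 in 5 (10%), against 6.87%. In Krt20, 2 of its 3 TEAD matches overlap by 1 base, and the 2 matches in Oas1a overlap too. The interferon element was present in 4 (8%) against 3.04%, and the antioxidant response element core TGACNNNGC in 4 (8%) against 10.1%. The GC box GGGCGG was found in 25 (50%) against 32.9%, and CCACCC, bound by KLF factors, in 22 (44%) against 27.7%. The cyclic AMP element TGACGTCA was in 1 promoter (2%), that of Mcam, against 1.62%, and the E-box CACGTG in 2 (4%) against 6.05%. The letters CAAAGTCCA (HNF4) and GTCTAGAC (SMAD) were in none, against 0.381% and 0.174% of all promoters. No entry was found for Ctgf, Ccnd1, Ccnd2, Aldh3a1, Mup20, Adamts15, Adcy8, Bace2, Bcas1, Bcas1os1, Ces3a, Dusp9, Fabp5, Fndc10, Fut2, Nefh, Rab37, Slc16a6, Gm20661, Gm43126, 9230114K14Rik and AC122844.1.

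The 6 direct libraries were not used to choose the members. Direct 24 h against direct 30 min thus asks independently whether the same genes were higher after longer exposure to treated medium, again from day 1. By the study's design the direct 30 min group was also longer in fresh medium, and its time of collection is not certain. Length of exposure and time in fresh medium cannot be told apart here. The fit planned as the main one, without a block, called no gene (limma, adjusted p under 0.05). The alternative took line as a replicate block, since same-numbered libraries come from the same mouse. In it, 23 of the 72 members were higher in direct 24 h and none was lower at the same threshold. Over all 17668 genes tested, 3.55% were called higher and 4.59% lower in that fit. Leaving out line 1 lowered the count of members to 12, all of them among the 23, with 379 of 16546 genes called higher. Leaving out line 4 gave 45 members and 1191 of 16976 genes, and leaving out line 2 gave 23 members and 974 of 16940 genes. The calls over all genes thus moved as well. These fits were chosen after seeing the data and had 1 residual degree of freedom per gene. Without the block no member and no gene passed (0%), the smallest adjusted p among members being 0.205, and at an unadjusted p under 0.05 there were 23 members higher and 0 lower, against 6.4% and 15% of all genes. The difference was above 0 in 67 of 72 members, against 40.6% of genes, and its median was 0.57 in members and -0.09 over all genes.

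The 3 libraries of direct 24 h lay above all 3 of direct 30 min in 21 members, against 7.33% of all genes. Within lines, 71 members were higher after 24 h in line 1, 65 in line 2 and 49 in line 4, with median differences of 0.81, 0.53 and 0.32. In each line the median over all genes was at or under 0. All 3 lines were higher in 45 members, against 18.2% of genes, and no member was lower in all 3. An exact permutation test of 3 against 3 libraries cannot go below 0.10, so none was made per gene.

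Cav2 and Sptssb gave the smallest adjusted p in the blocked fit, 0.00208 for both. Cav2 went from 94, 40 and 146 to 441, 119 and 683, a log2 difference of 2.00 (SE 0.69 without the block, n = 3 and 3). Sptssb went from 661, 504 and 2154 to 2828, 1511 and 5107, a difference of 1.64 (SE 0.60 without the block). The 2 groups overlapped in both genes because line 4 was already high after 30 min, and in each gene all lines rose. Ctgf differed by 1.33 (SE 0.58 without the block, adjusted p = 0.00479 with the block and 0.238 without).

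Mup20 went from 67, 109 and 425 to 251, 289 and 847 (adjusted p = 0.00657 with the block). Sfta2 went from 6, 10 and 18 to 43, 26 and 57, and Abcb1b from 163, 126 and 142 to 450, 219 and 329, with no overlap between the groups in either and adjusted p = 0.0257 and 0.0103 with the block. Pdzk1ip1, a small membrane protein of epithelia, went from 75, 163 and 76 to 234, 243 and 228 (adjusted p = 0.0201), and Mettl7b, a thiol methyltransferase, from 140, 254 and 290 to 380, 468 and 529 (adjusted p = 0.0102). These rises were thus present in each line.

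Aldh3a1 had the largest difference, 2.11 (SE 1.19 without the block), with 51, 3 and 113 after 30 min and 212, 47 and 184 after 24 h. Its adjusted p was 0.0337 with the block and 0.313 without. Acsm3, a mitochondrial acyl-CoA synthetase, went from 1550, 1244 and 2677 to 3641, 1905 and 5398 (adjusted p = 0.00755). Both cyclins rose, Ccnd1 from 5549, 4886 and 5888 to 10951, 6333 and 9786 and Ccnd2 from 15902, 16265 and 26315 to 33614, 27245 and 32785, with no overlap in either (adjusted p = 0.0264 and 0.0495 with the block). Oas1a rose from 83, 98 and 150 to 181, 158 and 272 (adjusted p = 0.0269 with the block). Krt20 rose by 0.65 (SE 0.58 without the block, adjusted p = 0.0411 with the block and 0.505 without). Epha4 gave 0.57 (adjusted p = 0.0518) and Clca1 0.88 (adjusted p = 0.135), which did not pass.

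Ptpn14 gave a difference of 0.01 (SE 0.22 without the block, adjusted p = 0.979 with the block). The 5 members below 0 were AC122844.1, Nefh, Rgag4, Ampd3 and Tmie, between -0.14 and -0.01. Tmie, a gene needed in hair cells of the ear, was already above every untreated library after 30 min, at 158, 228 and 240 against 87 to 127. By role, the members called with the block were 4 of 9 enzymes, 3 of 11 growth and signalling genes, 3 of 8 secreted and maturation genes, 2 of 4 lipid genes, 2 of 6 transporters, 2 of 9 traffic genes, 1 of 3 interferon-responsive genes, 2 of 7 noncoding genes and 4 of 15 others.

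The 902 genes that met the day 1 conditions but were at or over the day 2 limit were compared in the direct groups as well. With the block 327 of them were higher in direct 24 h and 2 were lower, and their median difference was 0.59, beside 0.57 in the 72 members. The difference between the 2 sets was not tested.

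**Figure D4:**
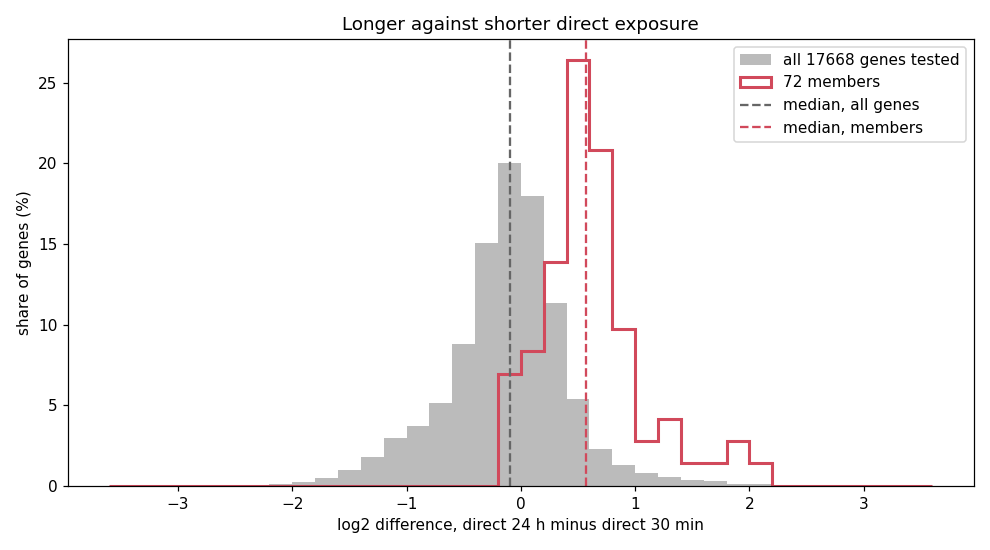
Share of genes (%) by log2 difference of direct 24 h minus direct 30 min, for all 17668 genes tested (grey) and the 72 members (red outline), in bins of 0.2. The member median is 0.57 and that of all genes -0.09 (dashed lines).

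Against the untreated libraries, which the rule had used, 46 members were higher in direct 24 h (7.05% of 17335 genes were) and none in direct 30 min, where 1 of 17731 genes (0.00564%) passed. At an unadjusted p under 0.05, 24 of the 71 members tested were higher in direct 30 min, against 13.9% of genes. These comparisons share the untreated libraries with the choice of members and are given as values only.

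PAM was set beside indirect medium because PAM was made in the absence of cells. The 12 libraries concerned all chose the members, so the values below are a description, and no count among them supports a difference between the media. From day 1, 68 of 72 members had a higher mean in PAM, where 32.8% of the 17634 genes tested did, and the median difference was 0.41, with -0.14 over all genes. The limma fit with the block called 26 members higher and none lower (5.07% and 12.9% of genes). Without the block it called none (0%), with 16 members higher and 0 lower at an unadjusted p under 0.05 (4.85% and 16.8% of genes). In 11 members the PAM libraries all lay above the indirect ones (5.78% of genes).

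The 5 members with the largest differences, in each case towards PAM, were Mup20 at 2.04 (SE 0.60), Sfta2 at 1.40 (SE 0.36), Ces3a at 1.31 (SE 0.38), Krt20 at 1.19 (SE 0.52) and Pnlip at 1.13 (SE 0.46), each from 3 and 3 libraries. Clca1 differed by 1.04. The largest difference towards indirect medium was that of Mcam, a cell adhesion molecule, at -0.45. By line, the medians over the members were 0.66 in line 1, 0.48 in line 2 and 0.18 in line 4.

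From day 2, 15 of the 69 members tested had a higher mean in PAM than in indirect medium, where 33.8% of 17755 genes did, and the median difference was -0.35, with -0.11 over all genes. No gene passed in limma with or without the block (0%), and at an unadjusted p under 0.05 there were 1 member higher and 4 lower (0.929% and 8.55% of genes). The mean was higher in PAM from day 1 and lower in PAM from day 2 in 51 of the 69 members, where 14.5% of the 17091 genes tested at both days were. The day 2 limit on the mean of all 6 libraries was part of the rule, and whether the medium effect differed between the days is not answered by these members.

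**Figure D5:**
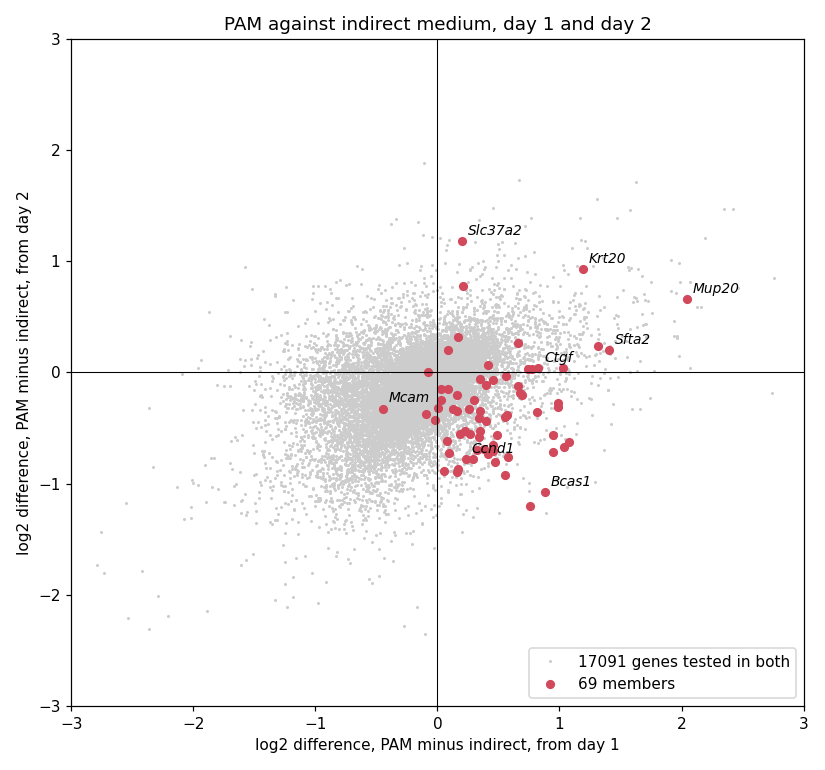
Log2 difference of PAM minus indirect medium from day 1 (x axis) and from day 2 (y axis) for the 69 members tested at both days (red) and all 17091 genes tested at both days (grey, 10 of them beyond the axes). Most members lie in the lower right, higher in PAM from day 1 and lower from day 2, where 14.5% of all genes lie. Mup20, Krt20 and Slc37a2 are above 0 on both axes.

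Genes of the pathways that the members belong to were taken from lists chosen with earlier results of these data known. Higher and lower here and in the lists that follow mean calls with the line block in direct 24 h against 30 min, where 3.55% and 4.59% of all genes were called. Without the block no gene of any list was called. Of 17 YAP-TEAD targets tested, 5 were higher and 1 lower, with a median of 0.39. Besides Ctgf these were Nt5e at 2.14, F3 at 1.61, Ajuba at 0.81 and Myof at 0.77. The list as a whole was above untreated from both days, with medians of 1.04 and 1.14 in indirect and PAM from day 1 and 1.05 and 1.13 from day 2, where the medians of all genes lay between -0.13 and 0.01. Ctgf and Ptpn14 were its 2 members of the module, and F3, which starts coagulation, was for instance at a mean of 303 untreated, 2700 in PAM from day 1 and 3047 from day 2.

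Of 25 Wnt genes tested, 2 were higher, Ccnd1 and the ligand Wnt7b, and 8 were lower, among them the stem cell receptor Lgr5 at -2.23 and the Wnt target Axin2 at -1.50. Of 18 interferon-stimulated genes, 3 were higher (Oas1a, Oasl1 and Bst2) and 2 were lower (Ifitm2 and Ifitm3). Ifit1 and Rsad2 had their highest means in the day 2 groups, at 107 and 109 for Ifit1 in indirect and PAM, unlike Oas1a, whose means in indirect and PAM were 191 and 240 from day 1 and near the untreated mean of 103 from day 2.

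Among 11 goblet cell markers, 3 were higher, Tff3, Agr2 and Zg16, and Klk1 was lower. The summed markers were at 83733 to 144667 untreated, 82829 to 200148 in the day 1 groups, 63285 to 98479 in indirect and 19516 to 51922 in PAM from day 2, so Clca1 was high from day 1 in libraries whose summed goblet markers overlapped the untreated range. The part of goblet cell number in the level of Clca1 was not tested. Of 24 enterocyte markers, 3 were higher (Ada, Nt5e and Krt20) and 1 lower (Treh). Of 12 keratins, 6 were higher and none lower, Krt4 and Krt7 with Krt20 among them. Of 38 axon guidance genes, 4 were higher and 11 lower, and Epha4 was not among them. The markers of other cell types moved in the same fit, with 8 of 14 enteroendocrine markers higher and 1 lower (median 1.28), 1 of 16 stem cell markers higher and 10 lower (median -0.83), and 0 of 20 proliferation markers higher and 8 lower (median -0.32). Their part in the rises of the members was not tested.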

How the data were processed

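RNA-seq libraries were trimmed by the authors with Trimmomatic 0.36, aligned to GRCm38 with STAR 2.5.3a and counted with HTSeq 0.9.1 on Ensembl genes, per the labels and the study's methods, which also name edgeR for their tests. The deposited value is a score per gene and library: counts scaled by the authors to 20 M reads per library and rounded up. The study describes it per kilobase, but the values are not divided by gene length, so levels of different genes are not on one scale. No count test was run. The number of reads was estimated from the spacing of low values. In 8 simulated libraries this was off by at most 3.81%. Counts differed beyond sampling noise in all 24 replicate pairs.

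The trended two-sided moderated test of limma 3.58.1 in R 4.3.3 was applied to log2(value + 1). Genes were tested if 3 or more libraries of the fit reached a value of 10, with Benjamini-Hochberg adjustment over all genes tested and a threshold of 0.05. On simulated data for direct 24 h against 30 min, 194 of 200 changed genes were called, with 3 false calls among 17718 genes. The simulated noise was independent between libraries, with no line effect, and the fit had no block. In the real data that fit called no gene, so the simulation does not show how often real changes are found, nor does it cover the fit with the block. Lines from the same mouse pair the libraries of the treated groups. The correlation of their deviations from the group means was 0.31 to 0.68 in the same line and -0.55 to 0.11 between lines. For untreated lines 1 and 2 it was 0.0047 to 0.18 with their own line and 0.36 to 0.59 with the other, so their line labels are in doubt. Without the block, p-values measure the spread between 3 or 4 lines. With the block they measure how far the differences within a line vary from line to line.

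Genes were matched to GENCODE vM21 (GRCm38), and promoters came from RefSeq. Figures were drawn with Python 3.11.15 and matplotlib 3.10.9. The members, the gene lists and the motifs were chosen with earlier results of these data known, and the roles after the members were known. Named genes are the 12 members with the largest day 1 rise, the 12 with the largest direct 24 h minus 30 min difference, all members in a listed pathway, 3 genes on each side of each limit, and the 5 with the largest PAM minus indirect difference from day 1. Other members are named to fill out a role. Alternatives were fits of all 7 groups, the line block, quantile normalization, no filter on low values, 10 as the pseudocount, a stricter threshold, other controls and leaving out each library.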

Additional observations from a re-analysis of the deposited data

Results flagged for a closer look

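In the 4 untreated libraries, 1 library stood apart from the other 3 in 5 of the 72 members by Dixon's test on the log2 scale, which flags about 1 in 20 groups by chance. Aldh3a1 was at 1 in untreated line 1, against 28 to 34 in the others. Atp6v0a4 was at 7 in untreated line 1 and at 5 in each of the others, and Bcas1 at 379 in line 1 against 193 to 201. In untreated line 2, Sectm1b was at 136 against 268 to 302 and Dusp9 at 97 against 146 to 158.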

How the results depend on the processing

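The number of members was 141 with no minimum mean, 46 with a day 2 limit of 0, and 74 to 93 when an untreated library was left out. Leaving out 1 line of the treated libraries gave 77 to 115, the highest without line 1. In these runs a smaller share of the day 1 libraries had to lie above all untreated ones, and the part of this in the counts was not tested. Of the 72 members, 45 to 63 were kept in these 7 sets. With untreated lines 3 and 4 only, chosen after seeing the data, there were 98 members, 55 of them shared. Quantile normalization gave 70 members, of which 49 were shared.

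For direct 24 h against 30 min, no member passed without the line block, 23 passed with this replicate block and 1 with all 7 groups in one fit. Leaving out a library from the fit without the block gave 0, which says nothing of the 23. The fit with the block gave 12 members without line 1, 23 without line 2 and 45 without line 4, chosen after seeing the data. Over all genes, 379 of 16546, 974 of 16940 and 1191 of 16976 were called higher in these fits. The median over members stayed between 0.33 and 0.75. For PAM against indirect from day 1, 26 members passed with the block, 0 to 1 when a library was left out, and 0 in the other fits. From day 2 none passed in any fit. The interaction of medium and day, added after the data were seen, passed in 0 of 18744 genes in limma, with 23 members at an unadjusted p under 0.05. The PAM and indirect libraries, used in these comparisons of media and in the interaction, chose the members, so those counts support nothing. For direct 24 h against untreated, 46 members passed, 9 under adjusted p under 0.01 with a log2 fold change of at least 1, and 25 to 43 when a library was left out, with 25 without direct 24 h of line 4, 28 without untreated line 2 and 30 without untreated line 4. For Ptpn14 the direct difference ranged from -0.25 (without direct 24 h of line 1) to 0.14 when a library was left out, and was -0.08 without direct 30 min of line 4. The causes were not tested. Counting error is large for members at values near 10, such as Atp6v0a4 and Sfta2.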
